A study of Mus musculus with 12 samples.

Results

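Maternal mRNA storage and translational repression factors were followed here as 7 transcripts chosen by gene symbol: Zar1, Zar1l, Ybx2, Eif4e1b, Eif4enif1, Lsm14a and Lsm14b. All 7 were present among the 11298 complete genes of the deposited table, and none was left out by a filter. RNA primed with oligo-dT was profiled by Smart-seq2, a full-length cDNA method for very small samples, in C57BL/6 mouse oocytes that still had a germinal vesicle (GV) and in embryos of the 1-cell and 2-cell stage. Genotypes in the labels are Pabpn1l-WT (wild type, WT) and Pabpn1l-KO (knockout, KO), which gave 6 groups of 2 libraries, each library made from 10 oocytes or embryos. Oocytes were taken in vivo and embryos were kept in KSOM medium, with no other treatment and no age or hour of collection in the labels. Pabpn1l encodes a poly(A)-binding protein found in oocytes and in the first embryonic stages. Neither the type of knockout allele, nor the mating, nor whether KO refers to the mother, the embryo or both is given in the labels. Whether both libraries of a group are from different animals is not given either. The p-values thus cover the spread between these samples only, and that spread may be technical.

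A growing oocyte makes and stores most of the mRNA that it will use until the embryonic genome is switched on. Stored messages are kept with short poly(A) tails in particles in which translation is held back, and they are translated or destroyed in waves during meiotic maturation and after fertilization. The factors described here build that store. ZAR1 and ZAR1L are zinc-finger proteins that bind maternal mRNA. YBX2, also known as MSY2, is the germ-cell Y-box protein that coats it. EIF4E1B is an oocyte form of the cap-binding protein eIF4E, and EIF4ENIF1, also known as 4E-T, binds eIF4E and keeps the cap away from the translation machinery. LSM14A and LSM14B are RNA-binding proteins of P-bodies and related granules that work with the helicase DDX6.

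The ends of the messages are shown first, because both poly(A) addition and oligo-dT priming act there. Capitals mark the poly(A) signal (AATAAA or ATTAAA) or a U-rich motif (TTTTAT or TTTTAAT, written with T), the kind of element that CPEB proteins bind in cytoplasmic polyadenylation. Each stretch runs 5′ to 3′ along the message and is at most 30 bases long, from the GENCODE M21 transcripts of GRCm38. The deposited table used mm9, so these coordinates serve only to place the stretches and were not used to measure expression.
Zar1: ataaagcctgtgAATAAAaggtattgcaaa
Ybx2: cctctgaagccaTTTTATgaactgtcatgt
Eif4enif1: ttcttttggtttATTAAAagttacatatgc
Eif4e1b: tttctgtatctaAATAAAcacttctggaac
Lsm14a: tgtTTTTAATAAAggccatggAATAAAgag
Lsm14b: aaatgcaaactaAATAAAcattggactctt

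All 6 stretches lie in the 3′ UTR of the last exon. The Zar1 stretch is at chr5:72577117-72577146 on the minus strand and the Ybx2 stretch at chr11:69941532-69941561 on the plus strand. The Eif4enif1 stretch is at chr11:3244542-3244571 and the Eif4e1b stretch at chr13:54788427-54788456, both on the plus strand. The Lsm14a stretch is at chr7:34344661-34344690 on the minus strand, 15 bases before the annotated end. It holds 2 AATAAA signals, which start 38 and 24 bases from that end, and the U-rich motif TTTTAAT shares 3 bases with the first of them. The Lsm14b stretch is at chr2:180035429-180035458 on the plus strand. The annotated 3′ UTR of Zar1l is 14 bases long and was too short to search. Among the other 6 messages, 5 held a poly(A) signal in the last 40 bases on the message strand, 4 of them AATAAA. Over the 8962 genes of the table with a 3′ UTR that covered the searched window, 77.2% held a signal, so the share among these 6 messages was close to that of all genes. A U-rich motif lay in the last 100 bases of 2 of the 6, Ybx2 and Lsm14a, against 20.2% of all genes. A match of letters is a description and not a binding site, and a missing match says only that these letters are not in this window. In this annotation the 7 transcripts are 895 to 3614 bases long, against a median of 2733 over the genes of the table.

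Levels are given as FPKM, fragments per kilobase of transcript, scaled to the mapped fragments of a library. The lowest deposited value was 1 FPKM, called the floor, and stands for any level up to 1 FPKM. The deposited columns carried a multiplier for each library, found in the decimals of the values: 1 in all 4 oocyte libraries, 0.269 and 0.212 for WT at the 1-cell stage against 0.432 and 0.552 for KO, and between 0.116 and 0.130 in the 4 libraries of the 2-cell stage. What this library factor was based on is not given in the sources used here. Results are therefore given on the deposited scale, in which the factor is kept, and again as FPKM before the factor, in which it is divided out. The factor alone moved the 1-cell comparison of genotypes. Over the 6227 genes above the floor in all 4 libraries of the 1-cell stage, the median KO over WT difference was 1.04 on the log2 scale as deposited and 0.01 before the factor. At the 2-cell stage it was 0.13 and 0.05 over 3949 genes. Shares of genes called are over all 11298 genes unless stated, and a gene at the floor can rarely be called, so the main ones are repeated over the 5537 genes averaging at least 5 FPKM, all 7 factors among them. Total deposited FPKM ranged from 5.36e+04 to 6.06e+05 over the 12 libraries, and the read depth is unknown.

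Pabpn1l itself checked the genotype labels in the oocyte and the 1-cell embryo. It stood at 220 and 204 FPKM in the WT GV libraries and at 7.23 and 4.98 FPKM in the KO GV libraries, and the groups did not overlap. The log2 difference was -4.92 ± 0.27 (SE), with a limma adjusted p of 0.000288. In 1-cell embryos Pabpn1l was 16.4 and 12.2 FPKM in WT and 2.57 and 4.55 FPKM in KO, again without overlap. That difference was -1.77 ± 0.27 as deposited (limma adjusted p 0.00109) and -2.91 ± 0.27 with the library factor divided out (limma adjusted p 0.000565). At the 2-cell stage Pabpn1l was 1.18 and 1 FPKM in WT and 1.00 and 1.90 FPKM in KO embryos, at or near the floor, so it checks no label there. All 10 oocyte markers were in the table, and their summed level was 1.38e+04 to 1.49e+04 FPKM over the 4 oocyte libraries. Of the markers of other cells, the 4 of 12 cumulus and granulosa markers in the table summed to 31.2 to 36.8 FPKM, the 3 of 7 sperm markers to 59.1 to 73.1 FPKM, and the 5 of 8 blood and immune markers to 18.6 to 20.1 FPKM in the oocytes. Most of the sperm sum was Ldhc, at 40.4 to 54.0 FPKM, about the level of Ybx2 and Lsm14b. The granulosa gene Fshr was called higher in KO oocytes, at 2.02 and 2.38 FPKM against 1 and 1.05 FPKM in WT (limma adjusted p 0.00208). Inha went the other way without a call, at 3.05 and 9.49 FPKM in WT and 1.07 and 1.53 FPKM in KO oocytes (-1.51 ± 0.34, limma adjusted p 0.0735). Cyp19a1 and Kitl were not called either. Each of those 4 follicle markers stood at 1 FPKM, the floor, in every 2-cell library. The 6 of 8 markers of the 2-cell stage summed to 49.9 to 64.0 FPKM in WT and 13.1 to 23.5 FPKM in KO 2-cell embryos. In GV oocytes the same 6 summed to 195.4 to 217.5 FPKM, mostly Dppa2 at 138 to 157 FPKM. The sum is therefore not a measure of the 2-cell stage alone.

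In oocytes the 7 factors spanned more than an order of magnitude and did not differ detectably between genotypes. Zar1 and Zar1l were by far the highest, at 704 and 636 FPKM on average over the 2 WT GV libraries. Their libraries overlapped, so neither was above the other. Eif4enif1 followed at 179 FPKM and Lsm14a at 118 FPKM, each apart from its neighbours in that order. Eif4e1b at 55.2 FPKM and Ybx2 at 53.7 FPKM overlapped. Lsm14b had the lowest mean, 47.6 FPKM, but overlapped Eif4e1b, which was below it in WT GV replicate 1 (44.4 against 46.9 FPKM). Against all genes of the table, Zar1 stood above 98.6% to 99.2% of genes in the WT GV libraries, while Lsm14b stood above 80.0% to 80.9%. The KO oocytes kept Zar1 and Zar1l on top and Lsm14b at the lowest mean, though there Lsm14b overlapped both Ybx2 and Eif4e1b.

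**Figure D1:**
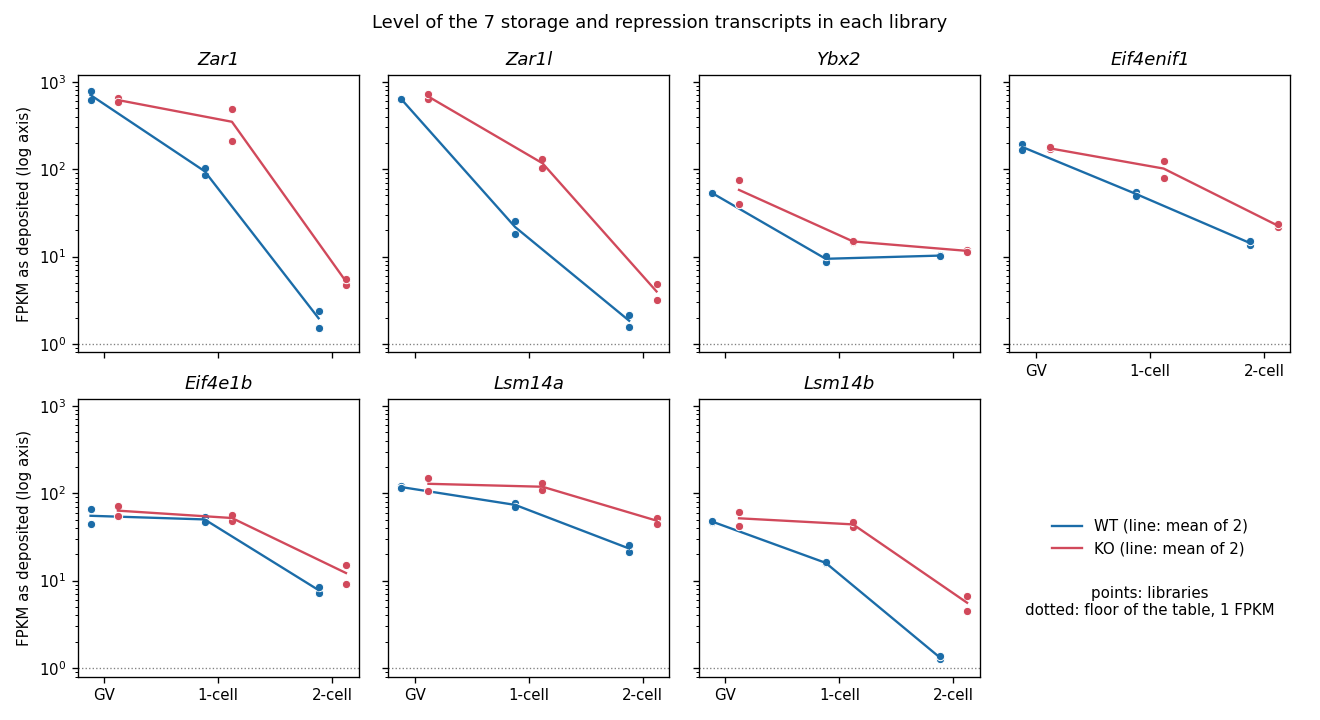
Deposited FPKM (log axis) of the 7 transcripts in GV oocytes, 1-cell and 2-cell embryos. Points are libraries, lines join the means of 2 libraries, and the dotted line is the floor of 1 FPKM. WT and KO points overlap in oocytes for all 7, and the KO points lie above the WT points for 6 of 7 at the 1-cell stage and for 7 of 7 at the 2-cell stage.

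Among the RNA-coating factors, Zar1 measured 793 and 616 FPKM in WT and 654 and 581 FPKM in KO oocytes, 86.2 and 103 FPKM in WT and 209 and 487 FPKM in KO embryos of the 1-cell stage, and 2.39 and 1.54 FPKM in WT and 4.77 and 5.60 FPKM in KO embryos of the 2-cell stage. Oocytes of both genotypes were high and overlapped, and both KO groups of embryos lay above the WT embryos, with a wide gap between the pair of KO 1-cell libraries. Zar1l measured 637 and 634 FPKM in WT and 631 and 719 FPKM in KO oocytes, 25.2 and 18.3 FPKM in WT and 104 and 130.0 FPKM in KO embryos of the 1-cell stage, and 1.56 and 2.12 FPKM in WT and 3.18 and 4.81 FPKM in KO embryos of the 2-cell stage. It fell further than Zar1 by the 1-cell stage in WT, and its KO embryos lay above WT without overlap at both embryo stages. Ybx2 measured 53.7 and 53.6 FPKM in WT and 40.1 and 75.6 FPKM in KO oocytes, 8.66 and 10.2 FPKM in WT and 14.8 and 15.0 FPKM in KO embryos of the 1-cell stage, and 10.4 and 10.1 FPKM in WT and 11.9 and 11.3 FPKM in KO embryos of the 2-cell stage. The KO oocyte libraries spanned those of WT, and from the 1-cell stage on Ybx2 was nearly level.

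Of the cap-directed pair, Eif4enif1 measured 193 and 165 FPKM in WT and 168 and 178 FPKM in KO oocytes, 54.3 and 49.5 FPKM in WT and 78.7 and 124 FPKM in KO embryos of the 1-cell stage, and 13.4 and 15.0 FPKM in WT and 22.0 and 23.3 FPKM in KO embryos of the 2-cell stage. KO embryos were higher at both stages, with no overlap. Eif4e1b measured 44.4 and 66.0 FPKM in WT and 55.3 and 71.1 FPKM in KO oocytes, 53.6 and 46.7 FPKM in WT and 48.5 and 55.6 FPKM in KO embryos of the 1-cell stage, and 7.20 and 8.39 FPKM in WT and 15.2 and 9.26 FPKM in KO embryos of the 2-cell stage. It was the only one of the 7 whose genotypes overlapped at the 1-cell stage on the deposited scale.

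Lsm14a measured 119 and 116 FPKM in WT and 106 and 150.3 FPKM in KO oocytes, 77.8 and 69.3 FPKM in WT and 108 and 129.5 FPKM in KO embryos of the 1-cell stage, and 21.1 and 25.5 FPKM in WT and 52.5 and 44.7 FPKM in KO embryos of the 2-cell stage. It was the highest of the 7 in 2-cell embryos of both genotypes. Its paralogue Lsm14b measured 46.9 and 48.3 FPKM in WT and 42.7 and 60.6 FPKM in KO oocytes, 15.7 and 16.2 FPKM in WT and 41.6 and 46.4 FPKM in KO embryos of the 1-cell stage, and 1.28 and 1.37 FPKM in WT and 6.63 and 4.55 FPKM in KO embryos of the 2-cell stage. WT 2-cell embryos were just above the floor, and the KO embryos were clear of them at both stages.

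In WT embryos, 6 of the 7 transcripts fell from the GV to the 1-cell stage on the deposited scale and 0 rose, where 85.8% of all genes were called lower and 0.0354% higher, so the count is near the background of falling genes. Over the genes averaging at least 5 FPKM the share called lower was 98.5%. The change was largest for Zar1l, at -4.82 ± 0.22 on the log2 scale (limma adjusted p 1.41e-07), and Zar1 changed by -2.88 ± 0.35 (limma adjusted p 3.79e-05). Ybx2 changed by -2.39 ± 0.25, Eif4enif1 by -1.77 ± 0.21, Lsm14b by -1.52 ± 0.20 and Lsm14a by -0.67 ± 0.20, which lost its call without WT 1-cell replicate 2 (-0.59, limma adjusted p 0.0541). Eif4e1b, the oocyte cap-binding protein, was not called, at -0.11 ± 0.26 (limma adjusted p 0.729). Before the factor, Zar1l was the only one called lower, at -2.81 ± 0.22 (limma adjusted p 0.000114), where 21.1% of genes were called lower. Eif4e1b at 1.93 ± 0.25 and Lsm14a at 1.38 ± 0.16 were called higher before the factor, where 8.67% of genes were. With quantile normalization, which gives all libraries the same distribution, 4 were called higher (33.4% of genes) and Zar1l alone lower (23.8% of genes). The fall of Zar1l therefore did not depend on the factor, while the directions of Eif4e1b, Lsm14a, Lsm14b and Eif4enif1 did. Since the libraries were primed with oligo-dT, a smaller amount of a message and a shorter poly(A) tail cannot be told apart, nor can fewer contributing cells and less RNA per cell.

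The step from the 1-cell to the 2-cell stage in WT separated Ybx2 from the rest on both scales. The other 6 were called lower as deposited, where 29% of genes were, and the same 6 before the factor, where 14.9% were. Over genes averaging at least 5 FPKM, 53.5% were called lower as deposited and 29.2% before the factor. None of the 7 was called higher as deposited, against 9.45% of genes. Zar1 changed by -5.02 ± 0.35 as deposited and -4.53 ± 0.37 before the factor (limma adjusted p 8.43e-06 and 9.54e-05). The deposited changes of Zar1l, Lsm14b and Eif4e1b were -2.99 ± 0.22, -2.87 ± 0.20 and -2.54 ± 0.26. Those of Eif4enif1 and Lsm14a were smaller, at -1.80 ± 0.21 and -1.62 ± 0.20. Ybx2 was not called as deposited, at 0.11 ± 0.25 (limma adjusted p 1), and was called higher before the factor, at 1.11 ± 0.30 (limma adjusted p 0.0268), where 21% of genes were called higher. The median over the 7 was -2.54 as deposited and -1.67 before the factor, against a median near 0 over all genes on both scales and of -0.74 as deposited and 0 before the factor over genes averaging at least 5 FPKM. With quantile normalization 6 were again called lower (26.3% of genes) and Ybx2 higher (20% of genes).

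In KO embryos fewer of the 7 were called lower at the first step than in WT. The same held for all genes (66.9% in KO against 85.8% in WT). The interaction terms given after the genotype comparisons test the difference. From the GV to the 1-cell stage, 4 of 7 were called lower as deposited, where 66.9% of genes were (higher: 0 of 7, 0.23% of genes): Zar1l by -2.53 ± 0.22, Ybx2 by -1.82 ± 0.25, Zar1 by -0.95 ± 0.35 and Eif4enif1 by -0.80 ± 0.21. Eif4e1b at -0.27 ± 0.26, Lsm14b at -0.21 ± 0.20 and Lsm14a at -0.10 ± 0.20 were not called. Among genes averaging at least 5 FPKM, 73.8% were called lower at this step as deposited, so the count of 4 is not above that background. The call of Zar1 was lost without KO GV replicate 1 (-0.86, limma adjusted p 0.159), KO GV replicate 2 (-1.03, limma adjusted p 0.102) or KO 1-cell replicate 1 (-0.34, limma adjusted p 0.296), and its value was -1.55 without KO 1-cell replicate 2. Eif4enif1 moved to -0.47 without KO 1-cell replicate 1. Before the factor, Zar1l was called lower (16.1% of genes) and Lsm14a and Lsm14b higher (6.83% of genes). With quantile normalization 4 were higher (23.1% of genes) and Zar1l was lower (19.9% of genes). From the 1-cell to the 2-cell stage 6 of 7 were called lower, all but Ybx2, where 60.7% of genes were, and none higher, where 0.646% were. Among genes averaging at least 5 FPKM the share called lower was 92.3%, so the count is not above that background. Zar1 changed by -5.70 ± 0.35 and Zar1l by -4.57 ± 0.22 at this step. Before the factor 3 were called lower (15.4% of genes), namely Zar1, Zar1l and Lsm14b, and 2 higher (9.91% of genes), namely Ybx2 and Lsm14a. Quantile normalization gave 3 lower (27.6% of genes) and 2 higher (36.2% of genes).

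As a share of the mean oocyte level of the same genotype, the deposited values ranged widely among the 7. WT 1-cell embryos held from 3.42% of the oocyte level of Zar1l to 90.9% of that of Eif4e1b, with a median of 28.9%. KO 1-cell embryos held from 17.3% for Zar1l to 92.6% for Lsm14a, with a median of 58.6%. The largest gaps between genotypes were in Lsm14b, with 33.5% in WT and 85.2% in KO, and in Zar1, with 13.5% and 56.4%. At the 2-cell stage WT embryos held from 0.279% for Zar1 to 19.8% for Lsm14a, and KO embryos from 0.591% for Zar1l to 37.9% for Lsm14a. These shares are descriptions on the deposited scale and move with the factor; before it, the median at the 1-cell stage was 121% in WT and 118% in KO.

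**Figure D2:**
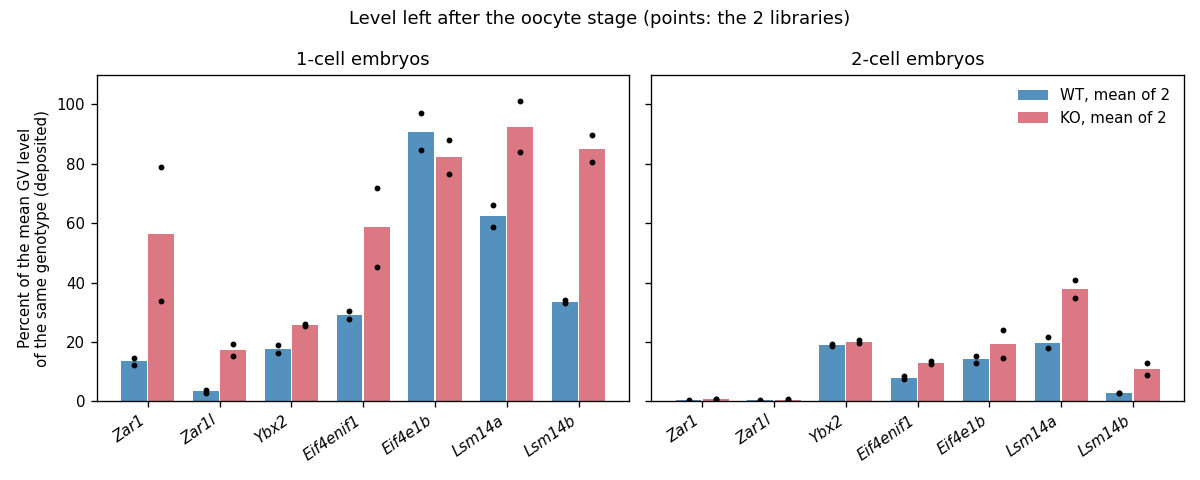
Deposited level in 1-cell and 2-cell embryos as a percentage of the mean GV level of the same genotype. Bars are means of 2 libraries and points the libraries. KO bars are higher than WT bars for every transcript except Eif4e1b at the 1-cell stage, and Zar1 and Zar1l are below 1% in both genotypes at the 2-cell stage.

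KO and WT oocytes were first compared at the GV stage, to ask whether the store itself was altered without Pabpn1l. None of the 7 was called by limma in either direction, against 0.584% of all genes higher and 1.04% lower as deposited, and the unadjusted p was under 0.05 for 0 of 7. Before the factor 0 were called too (0.876% of genes higher, 1.69% lower), and with quantile normalization 0 (0.00885% of genes in each direction). The groups overlapped for all 7, against 10.6% of genes with both KO libraries above and 14.9% with both below, and the differences ranged from -0.18 ± 0.35 for Zar1 to 0.21 ± 0.26 for Eif4e1b. Both genotypes of oocytes have a factor of 1, so the fold changes on the 2 scales are the same here.

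At the 1-cell stage, 5 of 7 transcripts were called higher in KO embryos as deposited, where 52.7% of all genes were, and 0 lower, where 0.0974% were; the count of higher ones is not far from that background, and among genes averaging at least 5 FPKM 80.7% were called higher. Zar1l differed most, by 2.38 ± 0.22 (limma adjusted p 9.93e-05), followed by Zar1 at 1.75 ± 0.35 (limma adjusted p 0.00343) and Lsm14b at 1.41 ± 0.20 (limma adjusted p 0.000779). Eif4enif1 at 0.92 ± 0.21 and Lsm14a at 0.68 ± 0.20 were also called (limma adjusted p 0.00615 and 0.0196). Ybx2 at 0.61 ± 0.25 and Eif4e1b at 0.05 ± 0.26 were not. The call of Lsm14a was lost without WT replicate 2 (0.60, limma adjusted p 0.102) and without KO replicate 2 (0.55, limma adjusted p 0.123), and without KO replicate 2 Zar1 moved to 1.14 and Eif4enif1 to 0.59. Both KO libraries lay above both WT libraries for 6 of 7, against 64.3% of genes (91.4% of those averaging at least 5 FPKM), and below for 0 of 7, against 0.327%. Of the 10 oocyte markers, 9 were called higher in KO at this stage as deposited and 4 before the factor, against 52.7% and 7.36% of all genes. Of the 12 cumulus, sperm and blood markers, 4 were called higher as deposited and 0 by limma before the factor. Their part in the result was not tested.

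Before the factor the picture at the 1-cell stage narrowed to Zar1l and Eif4e1b. Zar1l stood at 93.5 and 86.3 FPKM before the factor in WT and at 239.9 and 236 in KO 1-cell embryos, a log2 difference of 1.39 ± 0.21 (limma adjusted p 0.00505). Eif4e1b stood at 199 and 219.8 FPKM in WT and at 112 and 101 in KO, a difference of -0.97 ± 0.25 (limma adjusted p 0.0456). Hence 1 of 7 was called higher, where 7.36% of genes were, and 1 lower, where 2.26% were. Zar1 at 0.73 ± 0.35, Lsm14b at 0.42 ± 0.21, Eif4enif1 at -0.10 ± 0.15, Lsm14a at -0.34 ± 0.17 and Ybx2 at -0.36 ± 0.29 were not called. Both KO libraries lay above both WT libraries for 2 of 7 before the factor and below for 2 of 7, against 20.7% and 14.9% of genes. With quantile normalization 1 was called higher and 2 lower, against 12.8% and 16.4% of genes. The median of the 7 was 0.92 as deposited, against 0.57 over all genes and 0.96 over genes averaging at least 5 FPKM, and -0.10 before the factor, against 0 and 0.06.

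At the 2-cell stage the direction did not depend on the factor, and the KO libraries lay above the WT libraries for all 7. Both KO libraries exceeded both WT libraries for 7 of 7 on both scales, against 18.8% of genes as deposited and 17.4% before the factor (33.3% and 31.2% of those averaging at least 5 FPKM). The reverse held for 0 of 7, against 24.7% and 25.9% of genes. As deposited, 3 of 7 were called higher, where 7.56% of genes were (14.6% of those averaging at least 5 FPKM), and 0 lower, where 12% were. Called were Lsm14b by 1.49 ± 0.20 (limma adjusted p 0.000873), Lsm14a by 1.03 ± 0.20 (limma adjusted p 0.00627) and Zar1l by 0.80 ± 0.22 (limma adjusted p 0.0341). Zar1 at 1.07 ± 0.35 and Eif4enif1 at 0.63 ± 0.21 were not called (limma adjusted p 0.064 and 0.0676), nor were Eif4e1b at 0.56 ± 0.26 and Ybx2 at 0.16 ± 0.25. Before the factor 5 were called, where 10.6% of genes were (20.1% of those averaging at least 5 FPKM), with Zar1 at 1.30 ± 0.35 and Eif4enif1 at 0.59 ± 0.15 added (limma adjusted p 0.0228 and 0.0169) and Lsm14b at 1.89 ± 0.21 (limma adjusted p 0.000273). None was lower before the factor, where 17.8% of genes were. With quantile normalization 5 were higher and 0 lower, against 23.9% and 19.2% of genes. The median of the 7 was 0.80 as deposited and 0.98 before the factor, against 0 on both scales over all genes and over those averaging at least 5 FPKM.

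The call of Zar1l at the 2-cell stage did not hold without WT replicate 1 (0.66, limma adjusted p 0.205), WT replicate 2 (0.94, limma adjusted p 0.0801) or KO replicate 2 (0.56, limma adjusted p 0.224). That of Lsm14a was lost without WT replicate 1 (0.90, limma adjusted p 0.0519), which left only Lsm14b called. Over the 10 oocyte markers, 6 were called higher in KO 2-cell embryos as deposited and 7 before the factor, against 7.56% and 10.6% of all genes. Their median log2 difference was 0.91 as deposited and 0.93 before the factor, close to the 0.80 and 0.98 of the 7 factors. The summed level of these markers was 1141 to 1228 FPKM in KO and 446 to 447 FPKM in WT. Of the 6 markers of the 2-cell stage, 3 were lower and 1 higher in KO on both scales. Of the blood and immune markers, Lyz2 was called higher on both scales, at 2.33 and 2.70 FPKM in KO and at the floor in WT 2-cell embryos and in every library of the other stages (limma adjusted p 1.04e-05 as deposited and 2.53e-05 before the factor). The other 4 blood markers were not called, and S100a8, S100a9, Cd68 and Pecam1 were at 1 to 1.36 FPKM in 2-cell embryos. The part of this difference in oocyte transcripts at large, of a difference in stage, or of other cells in the result for the 7 factors was not tested.

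**Figure D3:**
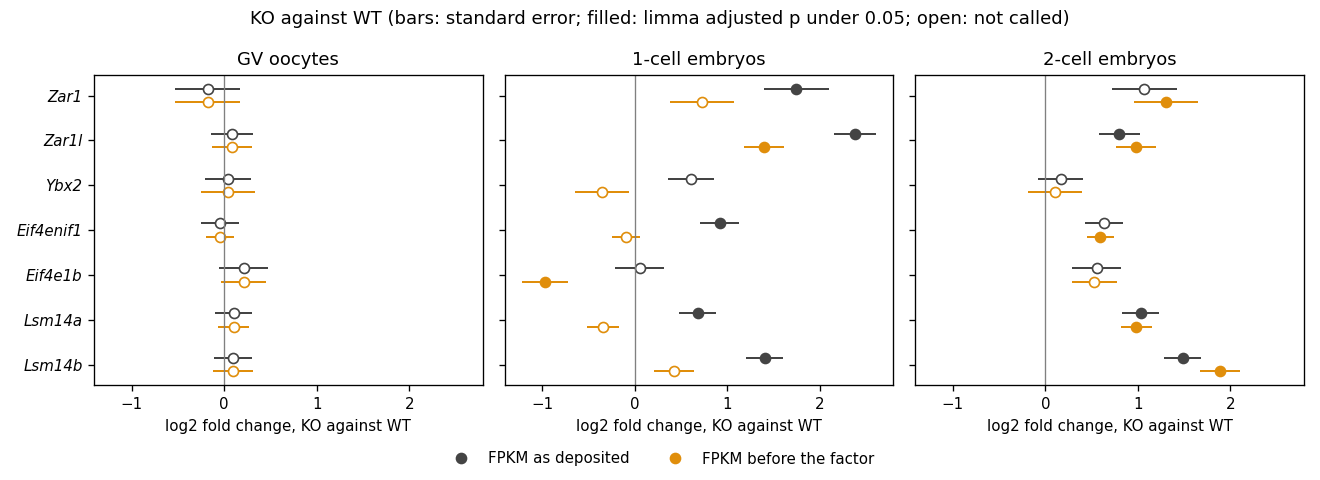
Difference between KO and WT (log2 fold change of FPKM + 1, bars: standard error of the limma fit) for the 7 transcripts at each stage, on the deposited scale (grey) and before the factor (orange). Filled points were called at an adjusted p under 0.05. The scales differ at the 1-cell stage, where Eif4e1b is at 0.05 as deposited and -0.97 before the factor, and are close at the 2-cell stage.

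Whether the KO effect differed between stages was tested with interaction terms. Relative to the oocyte, the KO effect at the 1-cell stage was larger for 4 of 7 as deposited (38.7% of genes), Zar1l, Zar1, Lsm14b and Eif4enif1, and smaller for 0 of 7 (0.859% of genes). Among genes averaging at least 5 FPKM it was larger for 57.6%, so the count of 4 is near that background. Before the factor 0 of 7 were called by limma in either direction (2.24% of genes higher, 0.505% lower), though 2 had an unadjusted p under 0.05. With quantile normalization 1 was called higher (5.81% of genes) and 0 lower (2.86%). The call of Zar1 was lost without WT GV replicate 1 (1.75, limma adjusted p 0.0732) or KO GV replicate 2 (1.84, limma adjusted p 0.0569). That of Eif4enif1 was lost without any 1 of 6 libraries, namely each of the 4 GV libraries, WT 1-cell replicate 2 and KO 1-cell replicate 2, with values of 0.64 to 1.08. Between the 1-cell and the 2-cell stage the KO effect of Zar1l became smaller as deposited, by -1.58 ± 0.32 (limma adjusted p 0.00524), where 35.7% of genes were called lower and 0.239% higher. Among genes averaging at least 5 FPKM 51.1% were called lower. Before the factor 4 of 7 were called higher in this interaction (5.91% of genes) and 0 lower (15.8%), namely Eif4e1b at 1.50 ± 0.36, Lsm14b at 1.46 ± 0.30, Lsm14a at 1.33 ± 0.23 and Eif4enif1 at 0.69 ± 0.19. With quantile normalization 4 were higher (31.4% of genes) and 0 lower (19.6%). Relative to the oocyte, the KO effect at the 2-cell stage was larger for Lsm14b on both scales, by 1.39 ± 0.29 as deposited (limma adjusted p 0.0137, 4.43% of genes) and 1.79 ± 0.30 before the factor (limma adjusted p 0.00634, 6.95% of genes). As deposited the call of Lsm14b was lost without WT 2-cell replicate 2 (1.42, limma adjusted p 0.0527). Lsm14a joined it before the factor, at 0.88 ± 0.23 (limma adjusted p 0.035). A smaller effect was called for 0 of 7, against 7.84% of genes as deposited and 13.8% before the factor, and quantile normalization gave 3 larger (14.5% of genes) and 0 smaller (15.6%).

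Ratios between related transcripts of the same library cancel the factor. The Lsm14a to Lsm14b ratio was 2.54 and 2.40 in WT GV and 2.48 and 2.48 in KO GV oocytes. It rose to 4.94 and 4.28 in WT 1-cell embryos while KO 1-cell embryos stayed at 2.59 and 2.79. At the 2-cell stage it was 16.5 and 18.6 in WT and 7.92 and 9.82 in KO. The paralogues thus parted in WT from the 1-cell stage, and the KO libraries lay below WT without overlap at both embryo stages.

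The Zar1 to Zar1l ratio was 1.24 and 0.971 in WT GV and 1.04 and 0.808 in KO GV oocytes. It was 3.42 and 5.64 in WT and 2.02 and 3.75 in KO 1-cell embryos, and the genotypes overlapped. In 2-cell embryos it was 1.53 and 0.726 in WT and 1.50 and 1.17 in KO, back near the oocyte values and again overlapping. Eif4e encodes the general cap-binding protein, and the Eif4e1b to Eif4e ratio was 0.184 and 0.283 in WT GV and 0.221 and 0.332 in KO GV oocytes. WT 1-cell embryos were the highest, at 0.970 and 1.29, against 0.514 and 0.500 in KO. In 2-cell embryos the order was the other way, with 0.235 and 0.258 in WT and 0.420 and 0.295 in KO. The Eif4enif1 to Eif4e ratio overlapped between genotypes in oocytes and 1-cell embryos, and in 2-cell embryos it was 0.440 and 0.463 in WT and 0.608 and 0.741 in KO. The ratio of Ybx2 to its general paralogue Ybx1 was 1.18 and 1.09 in WT and 1.29 and 1.50 in KO GV oocytes. It was lower in embryos, at 0.690 and 0.634 in WT and 0.610 and 0.424 in KO at the 1-cell stage, and 0.737 and 0.637 in WT and 0.569 and 0.443 in KO at the 2-cell stage. KO thus lay above WT in oocytes and below it in embryos. These ratios are descriptions, with 2 libraries a group and no test.

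**Figure D4:**
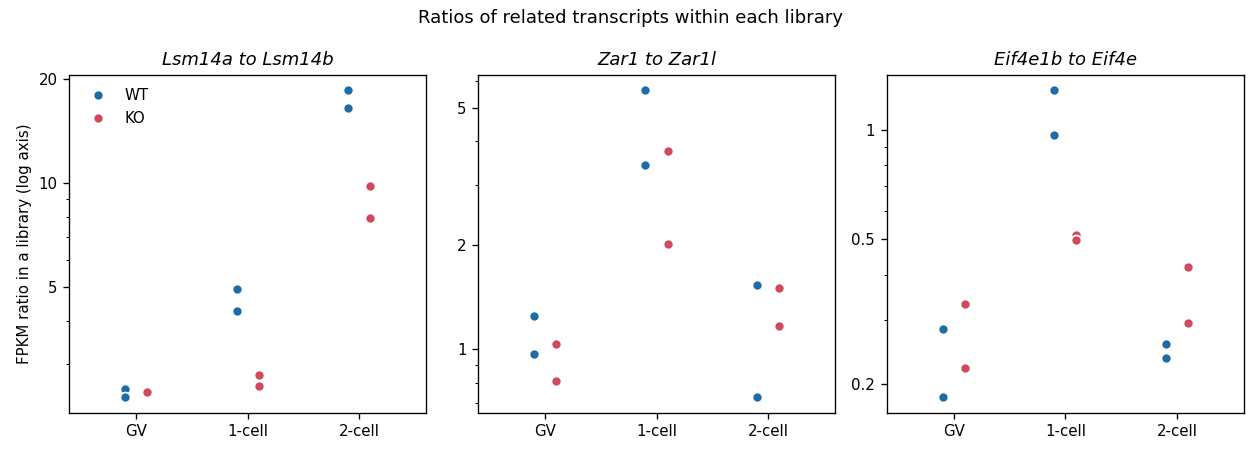
FPKM ratios of Lsm14a to Lsm14b, Zar1 to Zar1l and Eif4e1b to Eif4e within each library (log axis), by stage and genotype. Points are libraries. WT and KO are close in oocytes, the Lsm14a to Lsm14b ratio of WT is above KO in embryos, and Eif4e1b reaches about the level of Eif4e in WT 1-cell embryos only.

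Partners of these factors in storage particles and P-bodies were taken as a list of 24 genes, of which 22 were in the table. In GV oocytes 0 were called by limma. In 1-cell embryos 16 of 22 were higher in KO as deposited, where 52.7% of all genes and 80.7% of those averaging at least 5 FPKM were, and 0 lower, with a median of 0.89 against 0.57 and 0.96. The largest were Rbpms2, an RNA-binding protein of oocytes, at 1.66 ± 0.25, Dcp1a, a decapping cofactor, at 1.32 ± 0.28, Csda, the older symbol of the Y-box gene Ybx3, at 1.31 ± 0.31, and Cpeb1, which binds the cytoplasmic polyadenylation element, at 1.21 ± 0.19. Before the factor 0 of the 22 were called higher by limma, with Rbpms2 at 0.64 ± 0.18 (limma adjusted p 0.0683), and Stau2 was the only one lower, at -0.48 ± 0.12 (limma adjusted p 0.0394).

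At the 2-cell stage Csda and Rbpms2 were higher in KO on both scales, and G3bp1, a stress granule protein, was lower on both. As deposited these were 2 of 22 higher and 1 lower, where 7.56% and 12% of genes were. Before the factor the counts were the same, where 10.6% and 17.8% of genes were. The counts are thus not far from the background. Csda measured 12.7 and 15.7 FPKM in WT and 39.0 and 31.1 FPKM in KO 2-cell embryos, and Rbpms2 65.2 and 55.9 FPKM in WT and 129 and 101 FPKM in KO. G3bp1 measured 7.19 and 7.88 FPKM in WT and was at the floor of 1 FPKM in both KO libraries. The list median was 0.05 as deposited, against 0.80 for the 7 factors, 0.91 for the 10 oocyte markers and 0 over all genes. Ddx6, the helicase partner of the LSM14 proteins, was 1.38 to 2.14 FPKM in oocytes and at or within 0.01 FPKM of the floor in embryos, too low to compare.

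All 13 genes of a list of cap-binding proteins, their partners and related translation factors were in the table. In GV oocytes 0 were called by limma, and in 1-cell embryos 8 of 13 were higher in KO as deposited, where 52.7% of genes were, led by Eif4h at 1.74 ± 0.23, Eif4e at 1.18 ± 0.21, the helicase Eif4a1 at 1.02 ± 0.23 and Eif4a2 at 0.98 ± 0.27. Before the factor only Eif4h was called, at 1.13 ± 0.23 (limma adjusted p 0.0178), where 7.36% of genes were called higher. In 2-cell embryos 0 were higher and 3 lower in KO as deposited, against 12% of genes lower: the cap-binding paralogue Eif4e2 at -1.45 ± 0.19, the eIF4E-binding repressor Eif4ebp1 at -1.11 ± 0.29 and the scaffold Eif4g1 at -0.86 ± 0.16. Before the factor 6 were lower, where 17.8% of genes were. Eif4e2 measured 3.71 and 5.82 FPKM in WT and 1.17 and 1 FPKM in KO 2-cell embryos. The median of the list was -0.28, and these lower genes lay near the floor in KO, so the size of their change has no fixed value.

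**Figure D5:**
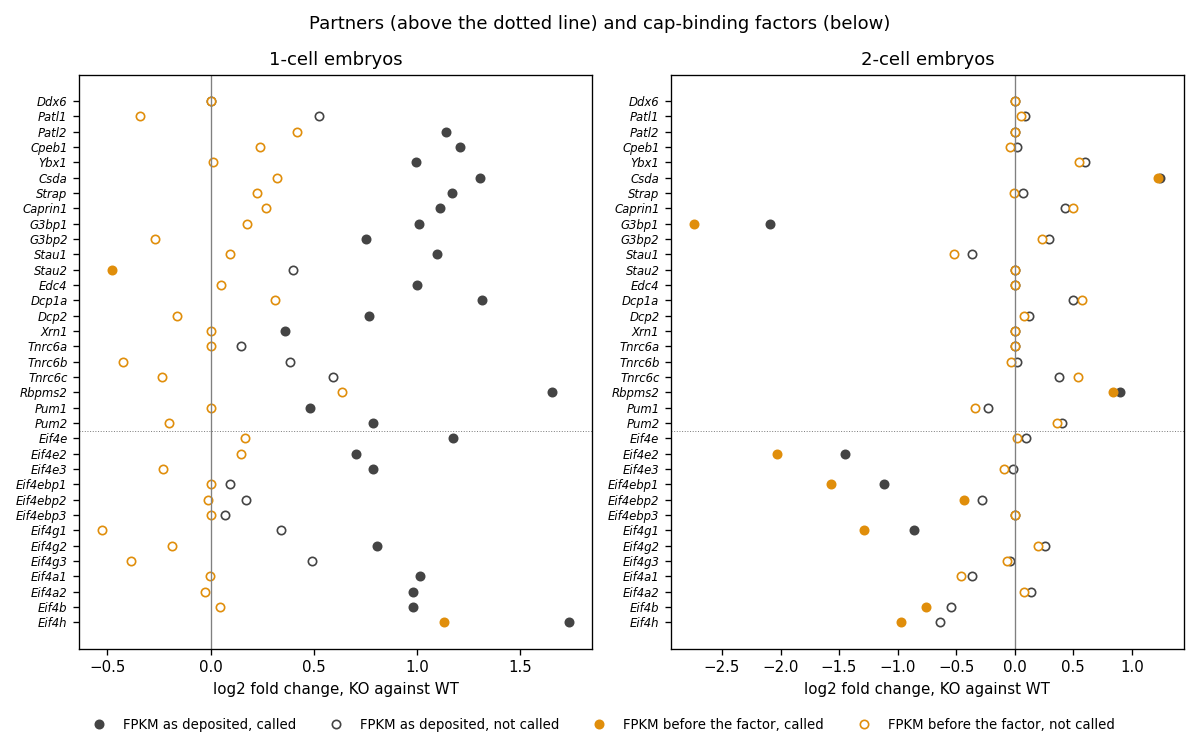
Difference between KO and WT (log2 fold change of FPKM + 1) in 1-cell and 2-cell embryos, as deposited (grey) and before the factor (orange). Above the dotted line are 22 storage and P-body partners. Below it are 13 genes of cap-binding proteins, their partners and related translation factors. Filled points were called by limma. At the 1-cell stage most grey points lie right of 0 and most orange points near it, and at the 2-cell stage Csda and Rbpms2 are the called points on the right.

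Across the 12 libraries, log2(FPKM + 1) of the 7 correlated with each other by Pearson's r of 0.58 (Ybx2 with Eif4e1b) to 0.99 (Lsm14a with Lsm14b). These libraries share the stage and the factor, so high values are common: of 5536 genes averaging 5 FPKM or more, 1572 had an r over 0.95 with Zar1, 2920 with Zar1l and 2408 with Eif4enif1. Eif4e1b had the fewest such genes, 125, followed by Lsm14a with 385, Ybx2 with 650 and Lsm14b with 862. The genes most like Eif4e1b were Srrm1 and Tnpo1 (r 0.982 and 0.981), those most like Ybx2 were Hras1 and Tex2 (r 0.989 and 0.986), and those most like Lsm14a were Ankrd49 and Rasa2 (r 0.993 and 0.991). Lsm14b was most like Celf2 and 4921524J17Rik (r 0.994 for both), and Zar1 was most like Ywhab and Uhrf1 (r 0.999 and 0.997). Zar1l was most like Mrpl24 and Jag1 (r 0.999 and 0.998) and Eif4enif1 most like Rcn2 and Tex10 (r 0.998 for both).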

How the data were processed

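The authors deposited 1 table of FPKM values for 12 libraries; the mm9 build, TopHat2 2.1.1 and Cufflinks 2.2.1 are named per the submitters' processing notes. Of 11299 entries, 11298 were complete and 1 was left out. The table stops at Zc3h14 in alphabetical order, and later genes were not analysed here. ERCC spike-in RNA was in the lysis buffer per the labels' protocols, and the table has 0 ERCC entries. The deposited FPKM were whole multiples of a 6-digit value times a 9-decimal library factor for 100% of the values above the floor (tolerance 0.01 of the last digit). The decimals alone do not fix the size of the factor. Among candidates that passed, the one taken brought the column total above the floor closest to the mean of the oocyte libraries. Changes before the factor rest on this choice. FPKM before the factor were set to the highest floor of the stage (between genotypes) or of all 12 libraries (stages and interactions). Without read counts the depth is unknown, and intervals for counting error are not given.

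The analysis used log2(FPKM + 1), which understates changes of low genes, with limma 3.58.1 in R 4.3.3. All 12 libraries were in 1 fit of 6 group means with an intensity trend. Two-sided p-values were adjusted by Benjamini-Hochberg over all 11298 genes of a contrast, and genes under 0.05 were called. Values after ± are standard errors. The fit was run on simulated data to check that it returned known changes. That run does not test the calls given here. Alternatives were FPKM before the factor, quantile normalization, a pseudocount of 0.1, a mean of at least 5 FPKM, a replicate block and leaving out each library. The 7 genes and the lists were chosen with earlier results of these data known. Of the lists, at most the 4 called genes of largest change per comparison are named, and Stau2, Ddx6 and the 2-cell level of G3bp1 were added with their values seen. One gene of the partner list is not reported here and was left out of its counts. For each of the 7, the 2 genes of highest correlation are named.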

Additional observations from a re-analysis of the deposited data

Results flagged for a closer look

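The KO effect differed between stages, by a limma interaction test on the deposited scale, in 6 cases. From the GV to the 1-cell stage it grew by 1.93 ± 0.49 for Zar1 (adjusted p 0.0174), 2.30 ± 0.32 for Zar1l (adjusted p 0.00172), 0.97 ± 0.30 for Eif4enif1 (adjusted p 0.032) and 1.31 ± 0.29 for Lsm14b (adjusted p 0.00999). The same values before the factor were 0.91, 1.31, -0.05 and 0.33, and none was called. From the 1-cell to the 2-cell stage the difference for Zar1l was -1.58 (limma adjusted p 0.00524) and -0.41 before the factor, where it was not called. In that term 35.7% of all genes were called lower as deposited. From the GV to the 2-cell stage Lsm14b differed by 1.39 (adjusted p 0.0137) and by 1.79 before the factor (adjusted p 0.00634), the only one of these 6 called on both scales. Which scale is closer to the RNA content of the embryos was not tested.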

How the results depend on the processing

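The 7 transcripts gave 714 log2 fold changes under the alternatives, of which 588 kept their direction and their side of the threshold, 36 lost the call, 25 gained one, 35 reversed and 30 moved without a call. All reversals came from changing the scale, 15 before the factor and 20 with quantile normalization, and the median of the 1-cell comparison over all genes shifts with it. A pseudocount of 0.1 and a mean of at least 5 FPKM only added calls. With 2 libraries a group and an unknown depth, small differences were not detectable.

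Before the factor the numbers called, higher and then lower, were 1 and 1 for KO against WT at the 1-cell stage and 5 and 0 at the 2-cell stage, 2 and 1 for WT 1-cell against GV, 1 and 6 for WT 2-cell against 1-cell, 2 and 1 for KO 1-cell against GV, and 2 and 3 for KO 2-cell against 1-cell. With quantile normalization they were 1 and 2, 5 and 0, 4 and 1, 1 and 6, 4 and 1, and 2 and 3. For the interactions, before the factor 0 were higher for 1-cell minus GV, 4 higher and 0 lower for 2-cell minus 1-cell and 2 higher for 2-cell minus GV, and with quantile normalization 1, 4 and 0, and 3. With a mean of at least 5 FPKM 6 were higher in KO at the 1-cell stage, 5 at the 2-cell stage and 2 in the 2-cell minus GV interaction. Of the 5537 genes in that fit, 4770, 977 and 491 were called higher. With a pseudocount of 0.1, 4 were higher in KO at the 2-cell stage, where 1034 of all 11298 genes were. Shares of genes before the factor and with quantile normalization stand with each comparison above.

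Leaving out 1 library leaves 1 library in its group, and the numbers called changed with the library left out, here and over all genes. Sizes moved as well. For KO against WT at the 1-cell stage, Zar1 moved from 1.75 to 1.14 and Eif4enif1 from 0.92 to 0.59 without KO replicate 2. At the 2-cell stage Lsm14a moved from 1.03 to 0.90 without WT replicate 1, and Zar1l from 0.80 to 0.56 without KO replicate 2. For KO 1-cell against GV, Zar1 moved from -0.95 to -0.34 without KO 1-cell replicate 1. In the interaction of 1-cell minus GV, Eif4enif1 moved from 0.97 to 0.64 without KO 1-cell replicate 2, and Zar1 from 1.93 to 1.75 without WT GV replicate 1. In that of 2-cell minus GV, Lsm14b moved from 1.39 to 1.42 without WT 2-cell replicate 2.

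Reversed values are given before the factor and then with quantile normalization. A value counts as reversed when its sign changed and it was called as deposited, under the alternative or under both. Some reversed values are therefore uncalled and near 0, such as -0.10 ± 0.15 before the factor for Eif4enif1 in KO against WT at the 1-cell stage. For KO against WT at the 1-cell stage they were -0.10 and -0.33 for Eif4enif1, -0.97 and -1.09 for Eif4e1b, and -0.34 and -0.52 for Lsm14a. For WT 1-cell against GV they were 0.28 and 0.83 for Eif4enif1, 1.93 and 2.34 for Eif4e1b, 1.38 and 1.86 for Lsm14a, and 0.48 and 0.93 for Lsm14b, and for Ybx2 0.058 with quantile normalization alone. For KO 1-cell against GV they were 0.086 and 0.38 for Zar1, 0.23 and 0.58 for Eif4enif1, 0.93 and 1.25 for Lsm14a, and 0.81 and 1.07 for Lsm14b, and for Eif4e1b 1.06 with quantile normalization alone. For KO 2-cell against 1-cell they were 1.57 and 1.65 for Ybx2 and 0.67 and 0.85 for Lsm14a, and with quantile normalization alone 0.014 for Eif4enif1 and 0.014 for Eif4e1b. In the interactions they were -0.050 and -0.25 for Eif4enif1 in 1-cell minus GV, 0.69 and 0.79 for Eif4enif1 in 2-cell minus 1-cell, and 0.15 for Zar1l in 2-cell minus 1-cell with quantile normalization alone. Apart from the construction of the scale, the cause was not tested.

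Whether the replicate numbers of the titles pair the samples is not given in the labels. Of 15 pairs of groups, 5 had a correlation of same-numbered deviations over 0.1, in a range of -0.40 to 0.17. With a single difference between replicates in each group, these correlations cannot decide it. With the replicate block all 90 values, counts and fold changes, kept their call and direction, for example 5 higher in KO at the 1-cell stage and 3 at the 2-cell stage.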
